A study of Mus musculus with 12 samples.

Results

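The oligodendrocyte and myelin genes described here are 31 genes taken by name from a list of the lineage, out of 52169 gene symbols in the transcript table of this series. Each gene was followed through its top transcript, the transcript with the highest mean level over the 12 libraries. Expression values played no part in the rule, although the list was drawn up with earlier results of these data known. All 31 passed the filter on low counts in every comparison, and the lowest count of any of them in any library was 44.

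RNA-seq was performed on striata of C57BL/6J mice that carried an injection of the neurotoxin 6-OHDA in the medial forebrain bundle of the right hemisphere, which removes the dopaminergic input to the striatum of that side. All mice had received desipramine (25 mg/kg) to protect noradrenergic neurons, and 2 weeks of recovery passed before treatment. L-DOPA (10 mg/kg, with 7.5 mg/kg benserazide, which blocks its conversion outside the brain) was given as a single dose (acute) or daily for 9 days (chronic), and tissue was taken 1 hour after the last dose. This gives the acute unlesioned, acute lesioned, chronic unlesioned and chronic lesioned groups, with 3 libraries each, so no group is free of L-DOPA. The unlesioned side is the left striatum of mice that were lesioned on the right, and the age of the mice was not given in the sources used here. The labels count 12 mice for the 12 libraries, whereas the study's text treats the unlesioned side as a control within each mouse. Libraries with the same number are called pairs here because their deviations from the group means went together. The correlation was weakest in chronic pair 3, at 0.142. It was 0.159 between chronic lesioned replicate 1 and chronic unlesioned replicate 3, which differ in number. Whether the libraries of a pair come from 1 mouse is therefore not settled.

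Oligodendrocytes wrap axons in myelin, a compacted stack of membrane made of a small set of very abundant proteins and of lipids such as galactosylceramide. They arise from precursor cells that carry the PDGF receptor alpha, pass through a committed stage marked by the receptor Gpr17, and are held in their identity by the transcription factors Olig1, Olig2, Sox10 and members of the Nkx family. In the mouse striatum myelin is concentrated in the bundles of cortical fibres that cross the tissue. In bulk tissue such as these punches, fewer oligodendrocytes and less RNA per oligodendrocyte cannot be told apart.

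Totals ran from 87695043 to 173116525 counts per library, and levels are given as CPM, counts per 1000000 scaled by TMM factors. Markers of medium spiny neurons, the main striatal neurons, summed to 2095 to 2869 CPM over the libraries. Markers of cortical glutamatergic neurons, which a striatal punch should lack, varied between libraries of the same group and between the sides. Lesioned against unlesioned, the median log2 fold change of the 10 was -1.07 after acute L-DOPA, with 1 called lower and 1 higher (*Cux2*). After chronic L-DOPA the median was -1.45 over the 9 tested, with none called. With same-numbered libraries as a block, 7 were lower and 2 higher (*Cux2* and *Rorb*) after acute L-DOPA (11.8% and 13.2% of all genes). After chronic L-DOPA 5 were lower and none higher (11.4% and 12.8%). *Slc17a7*, the vesicular glutamate transporter of cortical neurons, measured 23.3, 10.6 and 10.2 CPM in acute unlesioned replicates 1 to 3, 12.2, 1.64 and 1.25 CPM in acute lesioned, 18.3, 3.98 and 32.6 CPM in chronic unlesioned and 17.8, 1.34 and 1.29 CPM in chronic lesioned. Chronic unlesioned replicate 2 stood apart by choroid plexus RNA, with *Ttr* at 449.5 CPM against at most 1.51 CPM in the other 11 libraries. Of 6 markers of Schwann cells, which make peripheral myelin, *Pmp2* stayed at or below 0.0553 CPM and *Prx* at or below 0.490 CPM in all libraries. The sum of the 6 was 16.7 to 28.5 CPM in unlesioned and 104.6 to 147.5 CPM in lesioned libraries. On the lesioned side *Prx*, *Egr2* and *Pmp22* were called higher after acute L-DOPA, and *Prx* and *Egr2* after chronic. *Egr2* is also an immediate early gene of neurons, and *Sox10*, another of the 6, is itself a member. What part the cortical and choroid plexus signal had in the results below was not tested, apart from the fits named there.

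Per kilobase of transcript, the most abundant member over all libraries was *Mbp*, which encodes myelin basic protein, at 436 CPM per kb. It was followed by *Mobp*, for another basic protein of the sheath, at 123 CPM per kb, and by *Cnp*, for the myelin enzyme CNPase, at 36.5 CPM per kb. *Nkx2-2* was the least abundant, at 0.353 CPM per kb, and *Pdgfra* lay just above it at 1.25 CPM per kb.

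The same libraries were high or low for most members. Acute lesioned replicate 1 was the highest of the 12 libraries for 28 of the 31 members, and chronic lesioned replicate 1 was the lowest for 27. Relative to the mean of the acute unlesioned group, the median member stood at 144%, 117% and 101% in acute lesioned replicates 1 to 3. In the chronic unlesioned libraries it stood at 64.4%, 97.8% and 73.6%, and in the chronic lesioned libraries at 51.9%, 93.1% and 60.1%. Replicate 2 was thus the high library of both chronic groups. It exceeded replicates 1 and 3 for 29 members in the chronic unlesioned group and for 30 in the chronic lesioned group.

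**Figure D1:**
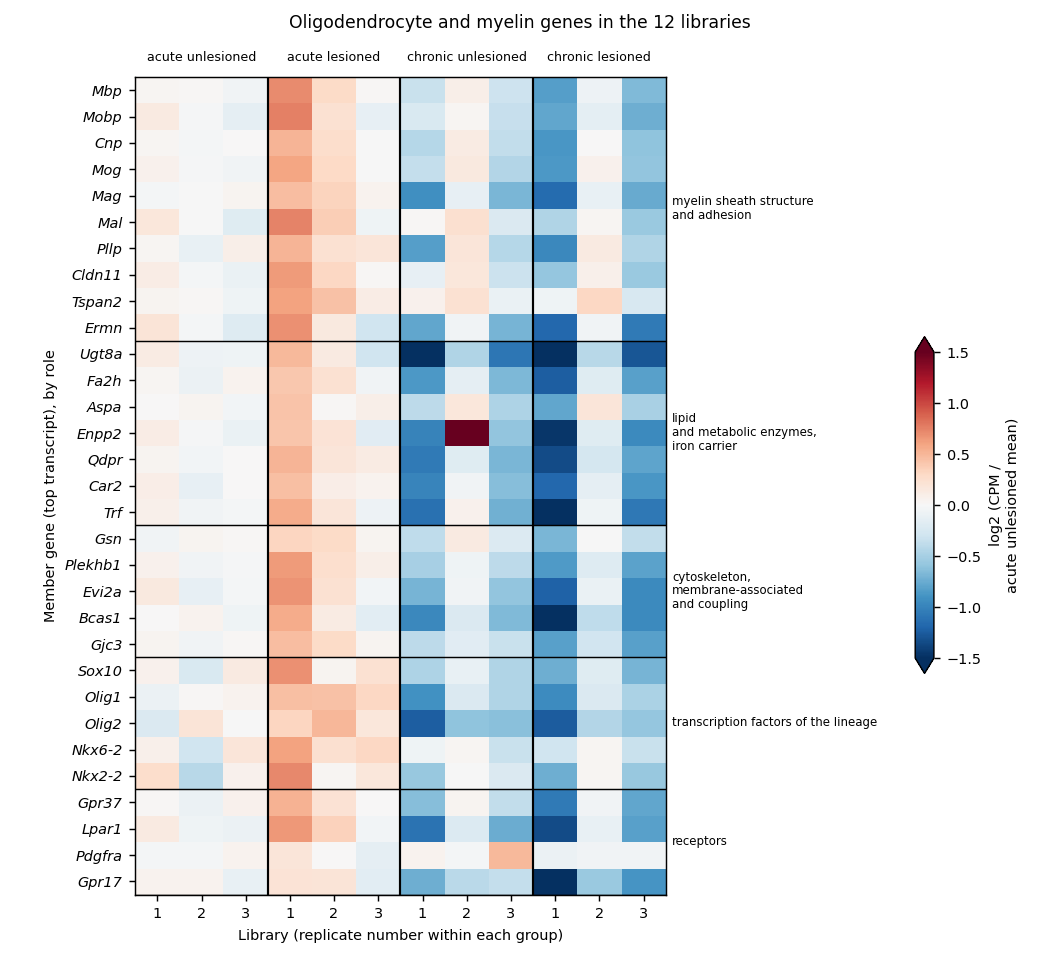
Heat map of the 31 members (rows, grouped by role) in the 12 libraries (columns); colour gives the log2 ratio of a library's CPM to the mean of the 3 acute unlesioned libraries. Acute lesioned replicate 1 is the reddest column (highest for 28 members), chronic lesioned replicate 1 the bluest (lowest for 27), and replicate 2 of both chronic groups is paler than its neighbours; the single dark red cell is *Enpp2* in chronic unlesioned replicate 2.

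The largest set of differences was found in the lesioned striatum between chronic and acute L-DOPA. Of the 31 members, 28 were lower after chronic L-DOPA and none was higher, where 13.1% of all genes tested were called lower by the same rule (edgeR's quasi-likelihood test, adjusted p under 0.05 over all transcripts, 1 transcript per gene counted). The median log2 fold change of the members was -0.88, and that of all genes -0.02. The 3 members not called were *Tspan2*, *Aspa* and *Pdgfra*. In 22 members every chronic lesioned library lay below every acute lesioned library, an order that 23.2% of genes with a mean of at least 0.5 CPM showed. Single libraries weighed on the count. Without chronic lesioned replicate 2 it was 30 (background 16.5%), without chronic lesioned replicates 1 or 3 it was 12 or 11 (background 6.45% or 8.75%), and without acute lesioned replicates 1 or 2 it was 15 or 16 (background 7.85% or 6.97%). With both lesioned replicates 1 left out, which carried the most cortical signal on that side, 5 members were called lower (background 3.11%), namely *Qdpr*, *Gjc3*, *Olig1*, *Olig2* and *Gpr17*, and the median was -0.53.

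In the unlesioned striatum, 3 members were lower after chronic than after acute L-DOPA, against 2.00% of all genes, and none was higher. These were *Ugt8a*, *Olig2* and *Gpr17*. The median of the members was -0.30. The count depended on the libraries used. Without chronic unlesioned replicate 2 it was 25 (background 6.63%), with a median of -0.50, and leaving out any of the other 5 libraries gave 0. The groups did not overlap in 11 members, all lower after chronic L-DOPA, against 16.2% of genes. Replicates 1 and 3 of the chronic unlesioned group lay below all 3 acute unlesioned libraries in 26 members, all except *Mal*, *Tspan2*, *Nkx6-2*, *Nkx2-2* and *Pdgfra*.

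**Figure D2:**
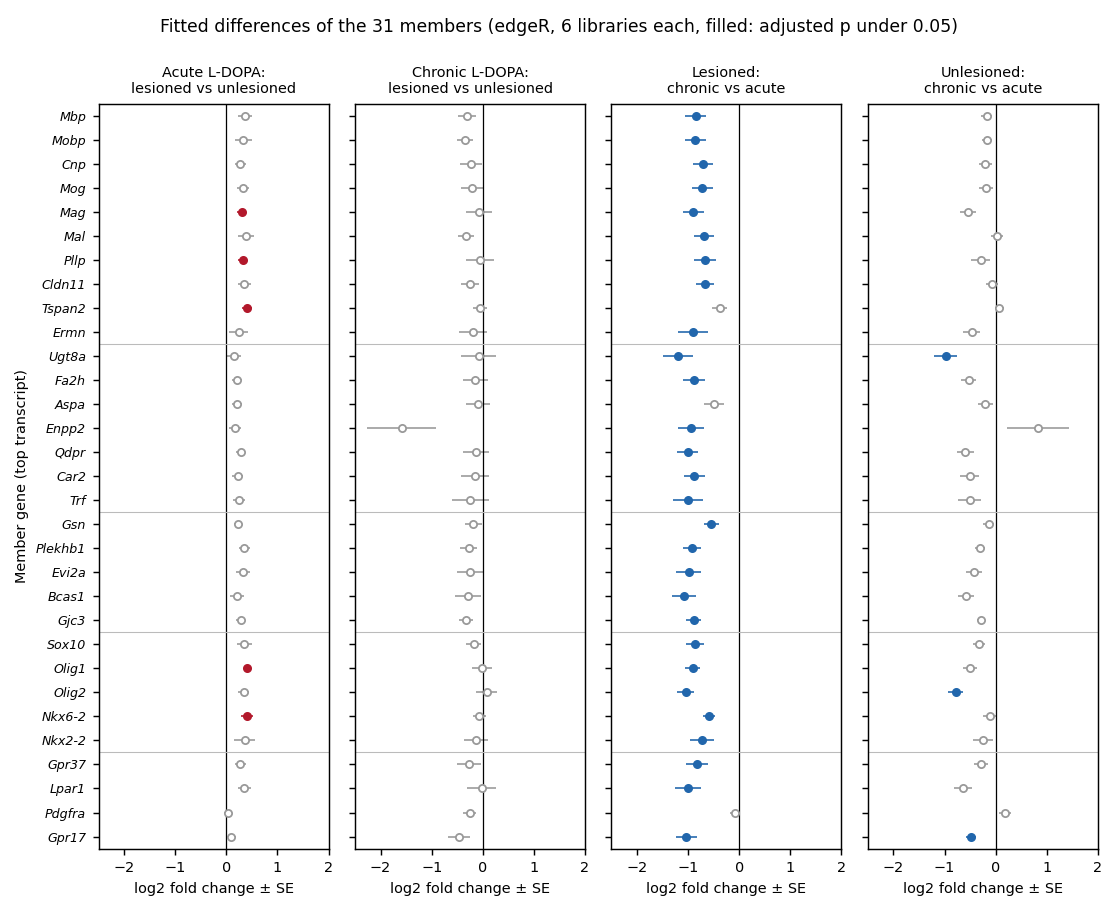
Fitted log2 fold change with standard error (x axes) for each of the 31 members (rows) in the 4 comparisons of 2 groups, 6 libraries each; filled points passed an adjusted p of 0.05, red for higher and blue for lower. In the lesioned striatum 28 points are filled and blue, against 3 in the unlesioned striatum; 5 are filled and red for acute L-DOPA and none is filled for chronic L-DOPA.

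Among the 10 genes of sheath structure and adhesion, 9 were lower on the lesioned side after chronic L-DOPA, with log2 fold changes from -0.67 to -0.90, and the exception was *Tspan2*, a tetraspanin of the myelin membrane (-0.38, adjusted p = 0.0838). *Mbp* measured 1003, 990.3 and 945 CPM in the acute unlesioned libraries, 1607, 1194 and 990.1 in acute lesioned, 774.5, 1041 and 788 in chronic unlesioned and 551, 930.1 and 619 in chronic lesioned. All chronic lesioned libraries lay below all acute lesioned libraries, while the 2 unlesioned groups overlapped through chronic replicate 2. The fall on the lesioned side was -0.85 in log2 (standard error 0.20, adjusted p = 0.0118). *Mag* (chr7:31684202-31699340, minus strand, mm9), which encodes the myelin-associated glycoprotein that faces the axon, measured 54.3, 55.1 and 56.9 CPM in acute unlesioned, 76.4, 69.7 and 57.6 in acute lesioned, 29.4, 50.9 and 34.4 in chronic unlesioned and 24.8, 51.5 and 32.9 in chronic lesioned. Neither side overlapped between treatments for *Mag*. It fell by 0.90 on the lesioned side (standard error 0.21, adjusted p = 0.0115), and on the unlesioned side the difference was -0.53 (standard error 0.16, adjusted p = 0.0921). *Mog* (chr17:37147685-37160343, minus strand), for a glycoprotein of the outermost myelin layer, measured 23.9, 22.7 and 22.2 CPM in acute unlesioned, 34.5, 28.2 and 22.8 in acute lesioned, 17.9, 25.4 and 16.9 in chronic unlesioned and 12.6, 23.9 and 15.3 in chronic lesioned. Here chronic lesioned replicate 2 reached above the lowest acute lesioned library, and the difference was -0.72 (standard error 0.21, adjusted p = 0.0283). The other members of this role called lower were *Mobp*, *Cnp*, *Mal*, *Pllp*, *Cldn11* and *Ermn*.

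Because these genes moved together, their promoters were searched for short matches to factors of the lineage. RefSeq promoters on GRCm38.p6 were found for 21 of the 31 members, and the 250 bases before each start were read on both strands. The letters ACAAAG or ACAATG, cores bound by SOX proteins, were present in 8 of the 21 genes and in 28.2% of all genes with a promoter there. An E-box written CAGCTG or CATCTG or CATATG, of the kind bound by OLIG proteins, was present in 10 of the 21 genes and in 31% of all genes. The windows of 4 genes are shown to let the range be seen: *Mobp* with 6 ACAAAG matches, *Mag* and *Olig2* with 1 SOX match each, and *Pdgfra*, whose level did not follow the others, with an E-box. Each is written 5′ to 3′ along its gene, ends at the base before the start, and has matches on either strand in capitals.
Mobp, chr9:120149492-120149741, plus strand: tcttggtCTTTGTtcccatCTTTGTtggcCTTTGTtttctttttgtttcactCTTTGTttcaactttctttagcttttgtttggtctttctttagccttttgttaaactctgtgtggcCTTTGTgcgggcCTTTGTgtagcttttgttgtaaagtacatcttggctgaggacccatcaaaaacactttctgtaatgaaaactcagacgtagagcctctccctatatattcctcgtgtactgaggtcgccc
Mag, chr7:30914864-30915113, minus strand: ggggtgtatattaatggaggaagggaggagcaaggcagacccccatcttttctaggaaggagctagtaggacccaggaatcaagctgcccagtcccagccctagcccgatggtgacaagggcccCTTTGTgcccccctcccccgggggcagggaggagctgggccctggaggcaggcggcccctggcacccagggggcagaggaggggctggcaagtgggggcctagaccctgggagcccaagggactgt
Olig2, chr16:91225300-91225549, plus strand: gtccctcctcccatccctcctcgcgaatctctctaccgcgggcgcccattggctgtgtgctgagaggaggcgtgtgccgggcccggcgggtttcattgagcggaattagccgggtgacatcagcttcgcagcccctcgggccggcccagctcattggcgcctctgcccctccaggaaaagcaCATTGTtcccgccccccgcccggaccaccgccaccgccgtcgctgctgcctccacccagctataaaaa
Pdgfra, chr5:75152001-75152250, plus strand: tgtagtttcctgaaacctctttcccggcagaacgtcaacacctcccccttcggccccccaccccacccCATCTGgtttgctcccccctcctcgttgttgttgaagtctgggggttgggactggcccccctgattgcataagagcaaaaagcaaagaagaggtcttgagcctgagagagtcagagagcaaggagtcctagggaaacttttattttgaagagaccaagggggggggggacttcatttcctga
Other *Mag* promoters were found: chr7:30914923-30915172 overlaps the window shown and holds the same match, and chr7:30914322-30914571 has no match. A match is a description of these letters and does not show binding.

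Of the 7 lipid and metabolic enzymes and iron carriers, 6 were lower on the lesioned side after chronic L-DOPA. The exception was *Aspa*, the aspartoacylase that releases acetate for lipid synthesis (-0.50, adjusted p = 0.10). *Ugt8a*, the enzyme that makes galactosylceramide, had the lowest log2 fold change of all members there, -1.20 (standard error 0.29, adjusted p = 0.0140). It was also lower on the unlesioned side, by 0.98 (standard error 0.22, adjusted p = 0.0456). *Fa2h*, which hydroxylates the fatty acids of these lipids, measured 17.2, 15.8 and 17.4 CPM in acute unlesioned, 22.3, 19.8 and 16.3 in acute lesioned, 9.23, 15.3 and 10.5 in chronic unlesioned and 7.13, 14.9 and 9.57 in chronic lesioned. Neither side overlapped between treatments, and the lesioned side fell by 0.88 (standard error 0.21, adjusted p = 0.0127). *Qdpr*, the reductase that regenerates tetrahydrobiopterin, measured 54.2, 51.0 and 52.7 CPM in acute unlesioned, 74.7, 59.6 and 57.4 in acute lesioned, 25.3, 46.5 and 32.8 in chronic unlesioned and 20.8, 43.9 and 30.5 in chronic lesioned. It was lower by 1.01 on the lesioned side (standard error 0.21, adjusted p = 0.00676), and both chronic groups lay wholly below the acute group of their side. The remaining ones called were *Car2*, *Trf* and *Enpp2*, for carbonic anhydrase 2, the iron carrier transferrin and autotaxin.

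*Enpp2* was the member least like the rest on the unlesioned side. It measured 45.7, 41.6 and 39.3 CPM in acute unlesioned, 56.3, 48.6 and 37.4 in acute lesioned, 21.0, 174 and 27.9 in chronic unlesioned and 15.3, 37.1 and 21.7 in chronic lesioned. The high value lies in chronic unlesioned replicate 2, the library with *Ttr* at 449.5 CPM, and choroid plexus epithelium is known to express *Enpp2* strongly. Lesioned against unlesioned striata after chronic L-DOPA differed by -1.59 for *Enpp2* (standard error 0.68, adjusted p = 0.167), and by 0.02 without that library. Between chronic and acute L-DOPA on the unlesioned side its log2 fold change turned from 0.83 to -0.79 without it.

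All 5 members with cytoskeletal, membrane-associated or coupling roles were lower on the lesioned side after chronic L-DOPA. *Gjc3*, a connexin of oligodendrocytes, measured 15.3, 14.4 and 15.1 CPM in acute unlesioned, 20.6, 18.1 and 15.4 in acute lesioned, 11.4, 13.3 and 11.8 in chronic unlesioned and 8.47, 12.2 and 8.49 in chronic lesioned. The groups did not overlap on either side, with -0.89 on the lesioned side (standard error 0.15, adjusted p = 0.00189). On the unlesioned side it was -0.29 (standard error 0.07, adjusted p = 0.0623). *Plekhb1*, a pleckstrin homology protein, measured 99.5, 92.2 and 94.4 CPM in acute unlesioned, 148, 114 and 102 in acute lesioned, 67.3, 91.5 and 72.8 in chronic unlesioned and 53.1, 83.3 and 54.6 in chronic lesioned. It was lower by 0.93 on the lesioned side (standard error 0.18, adjusted p = 0.00417). *Bcas1*, known as a gene of oligodendrocytes that are forming myelin, measured 59.3, 61.0 and 56.6 CPM in acute unlesioned, 86.8, 64.3 and 52.7 in acute lesioned, 30.2, 50.8 and 37.2 in chronic unlesioned and 20.7, 45.3 and 30.3 in chronic lesioned. Its difference on the lesioned side was -1.08 (standard error 0.24, adjusted p = 0.00967), again without overlap. *Gsn*, for the actin-severing protein gelsolin, had the smallest fall of this role, by 0.54. *Evi2a* lies inside an intron of *Nf1* and shares exon bases with *Evi2b*, so its reads are uncertain; its log2 fold change was -0.99.

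All 5 transcription factors of the lineage were lower on the lesioned side after chronic L-DOPA. *Olig1* (chr16:91270014-91272184, plus strand, mm9) and *Olig2* (chr16:91225795-91228922, plus strand), basic helix-loop-helix factors on the same chromosome, had the smallest adjusted p-values of all members there. *Olig2* measured 6.55, 8.73 and 7.61 CPM in acute unlesioned, 9.57, 10.8 and 8.61 in acute lesioned, 3.25, 5.01 and 4.96 in chronic unlesioned and 3.20, 5.61 and 5.12 in chronic lesioned. All 6 chronic libraries lay below all 6 acute libraries, and replicate 2 did not stand out in the unlesioned group. *Olig2* was lower by 1.05 on the lesioned side (standard error 0.17, adjusted p = 0.00169) and by 0.79 on the unlesioned side (standard error 0.15, adjusted p = 0.0289). *Olig1* measured 29.7, 31.9 and 32.7 CPM in acute unlesioned, 43.1, 42.7 and 38.8 in acute lesioned, 16.7, 27.1 and 23.0 in chronic unlesioned and 16.3, 27.1 and 22.7 in chronic lesioned. Its chronic groups were nearly alike while its acute groups did not overlap, and its fall on the lesioned side was 0.91 (standard error 0.15, adjusted p = 0.00162). *Sox10*, an HMG box factor that drives myelin genes, measured 13.3, 10.9 and 14.0 CPM in acute unlesioned, 20.5, 13.1 and 14.9 in acute lesioned, 9.22, 11.8 and 9.32 in chronic unlesioned and 7.69, 11.3 and 7.82 in chronic lesioned. The lesioned groups did not overlap, with a difference of -0.86 (standard error 0.17, adjusted p = 0.00602). *Nkx6-2*, a homeobox factor of mature oligodendrocytes, measured 5.64, 4.33 and 6.03 CPM in acute unlesioned, 8.12, 6.32 and 6.63 in acute lesioned, 5.08, 5.44 and 4.23 in chronic unlesioned and 4.33, 5.46 and 4.22 in chronic lesioned. It was lower by 0.59 on the lesioned side (standard error 0.12, adjusted p = 0.00737) and overlapped on the unlesioned side. *Nkx2-2*, the least abundant member, was lower by 0.73 there (adjusted p = 0.0427); *Nkx2-2* and *Nkx6-2*, like *Bcas1*, *Ermn*, *Tspan2* and *Gpr17*, share exon bases with genes on the opposite strand, and strand use in the counting was not given in the sources used here.

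Of the 4 receptors, 3 were lower on the lesioned side after chronic L-DOPA, and *Pdgfra* was not. *Pdgfra* (chr5:75548316-75594229, plus strand, mm9), the receptor of precursors, measured 7.84, 7.83 and 8.26 CPM in acute unlesioned, 9.07, 8.04 and 7.25 in acute lesioned, 8.28, 7.80 and 11.2 in chronic unlesioned and 7.53, 7.66 and 7.71 in chronic lesioned. Apart from chronic unlesioned replicate 3 the libraries spanned a narrow range, and none of its comparisons passed the test. Chronic against acute L-DOPA gave -0.09 on the lesioned side (standard error 0.09, adjusted p = 0.515) and 0.19 on the unlesioned side (standard error 0.12, adjusted p = 0.373). *Gpr17*, the receptor of the committed stage, measured 11.3, 11.3 and 10.1 CPM in acute unlesioned, 12.6, 12.4 and 9.71 in acute lesioned, 6.57, 8.22 and 8.51 in chronic unlesioned and 3.56, 7.38 and 5.88 in chronic lesioned. Its chronic libraries lay below the acute libraries on both sides. It was lower by 1.04 on the lesioned side (standard error 0.20, adjusted p = 0.00487) and by 0.48 on the unlesioned side (standard error 0.10, adjusted p = 0.0329). *Gpr17* lies within *Lims2*, which runs on the opposite strand. *Gpr37*, an orphan receptor of mature oligodendrocytes, and *Lpar1*, a receptor for lysophosphatidic acid, were lower on the lesioned side by 0.83 and 1.01.

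**Figure D3:**
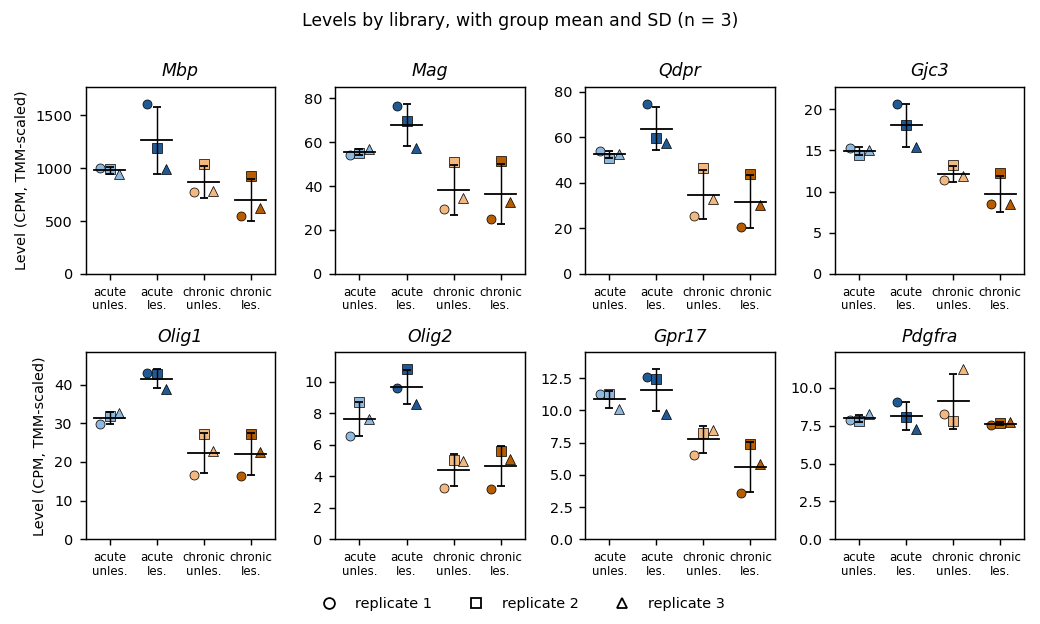
Level in CPM (y axes, from 0) of 8 members in each library, by group (x axes), with the group mean and SD (bars, n = 3); marker shape gives the replicate number. For *Olig2* all 6 chronic libraries lie below all 6 acute libraries, for *Mbp* replicate 2 (square) of the chronic unlesioned group, at 1041, reaches the level of acute libraries, and *Pdgfra* stays between 7.25 and 11.2.

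The lesioned and unlesioned sides were compared within each treatment, always under L-DOPA and with the lesion on the right. After acute L-DOPA all 31 members had a higher fitted level in the lesioned striatum, with a median log2 fold change of 0.30 against 0.02 for all genes. The median was 0.15 without acute lesioned replicate 1 and 0.40 without acute lesioned replicate 3. Of the members, 5 passed the test (*Mag*, *Pllp*, *Tspan2*, *Olig1* and *Nkx6-2*), where 8.16% of all genes were called higher. *Olig1* had the smallest adjusted p, at 0.41 in log2 (standard error 0.06, adjusted p = 0.00160). *Mag* rose by 0.30 (standard error 0.09, adjusted p = 0.0451). Astrocyte and microglial markers moved with this difference. Astrocyte markers summed to 537 to 593 CPM in acute unlesioned and 601 to 764 CPM in acute lesioned libraries, without overlap, with 3 of 10 called higher (*Gfap*, *Gjb6* and *Gja1*) and none lower. Of 10 microglial markers 5 were called higher and none lower. Their part in the difference was not tested. With the pairs entered as a block, 21 members were called higher, where 13.2% of all genes were. The 10 that were not called with the block included 5 of the 7 lipid and metabolic enzymes and iron carriers, and also *Pdgfra* (0.03, adjusted p = 0.800) and *Gpr17* (0.09, adjusted p = 0.293). Without acute lesioned replicate 3, 24 members were called in the fit without the block (background 7.57%), and leaving out any of the other 5 libraries gave 1 or 2. The groups did not overlap in 9 members, all of them higher on the lesioned side, where 17.4% of genes were higher in this way.

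After chronic L-DOPA the difference between the sides went the other way for 30 of the 31 members, with a median of -0.20 against -0.01 for all genes. That median depended on single libraries. It was -0.0039 without chronic unlesioned replicate 2 and -0.034 without chronic lesioned replicate 1. It was -0.11 without chronic lesioned replicate 3, -0.32 without chronic unlesioned replicate 1 and -0.50 without chronic lesioned replicate 2. No member passed the test in the fit without the block, where 5.20% of all genes were called lower and 2 members had an unadjusted p under 0.05. With the pairs as a block, 13 members were lower in the lesioned striatum (background 11.4%): *Mbp*, *Mobp*, *Cnp*, *Mal*, *Cldn11*, *Enpp2*, *Trf*, *Plekhb1*, *Evi2a*, *Bcas1*, *Gjc3*, *Gpr37* and *Gpr17*. *Mbp* fell by 0.33 in that fit (standard error 0.07, adjusted p = 0.00449) and *Gpr17* by 0.50 (standard error 0.11, adjusted p = 0.00779). Neither *Olig1* (-0.02, adjusted p = 0.878) nor *Olig2* (0.07, adjusted p = 0.607) was called. DESeq2 called no member in this comparison. The groups did not overlap in 1 member, *Pdgfra*, lower on the lesioned side, where 18.1% of genes were lower in this way.

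Within pairs the direction could be read library by library. In acute pair 1 all 31 members were higher in the lesioned library, with a median log2 ratio of 0.49. In acute pair 2, 30 were higher (median 0.30), and in acute pair 3, 20 were (median 0.04). In chronic pairs 1, 2 and 3, respectively 31, 23 and 30 members were lower in the lesioned library, with medians of -0.37, -0.08 and -0.24. Of the members, 19 were higher in all 3 acute pairs (background 28.5%) and 23 were lower in all 3 chronic pairs (background 32.3%). Both held for 13 (background 5.16%): *Mbp*, *Mobp*, *Mog*, *Mal*, *Pllp*, *Cldn11*, *Qdpr*, *Car2*, *Gsn*, *Plekhb1*, *Gjc3*, *Sox10* and *Olig1*.

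**Figure D4:**
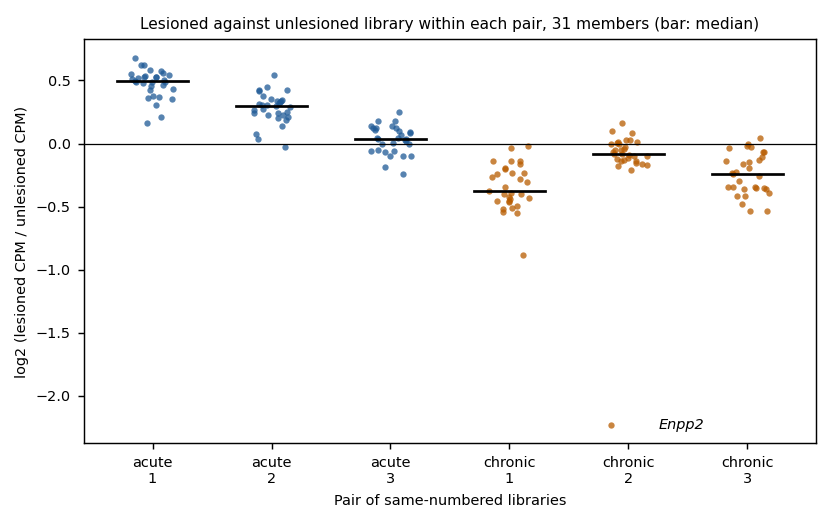
Log2 ratio of the lesioned to the unlesioned library (y axis) within each pair of same-numbered libraries (x axis); each point is 1 of the 31 members and the bars are medians. The medians are 0.49, 0.30 and 0.04 for the acute pairs and -0.37, -0.08 and -0.24 for the chronic pairs; the low point in chronic pair 2 is *Enpp2*.

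The change of the lesion difference from acute to chronic L-DOPA was tested as an interaction over all 12 libraries. It was negative for all 31 members, with a median of -0.49 against -0.03 for all genes. The median was -0.31 without chronic unlesioned replicate 2, -0.32 without chronic lesioned replicate 1 and -0.75 without chronic lesioned replicate 2. No member passed the test, where 1.56% of genes were called lower; 11 members had an unadjusted p under 0.05, and DESeq2 called 1. With the pairs as a block, 23 members were called (background 6.13%), from -0.37 for *Car2* to -1.19 for *Enpp2*. *Mal*, a proteolipid of the myelin membrane, had the smallest adjusted p of these (-0.70, standard error 0.11, adjusted p = 0.00113). The 8 not called with the block were *Ermn*, *Ugt8a*, *Fa2h*, *Aspa*, *Olig2*, *Nkx2-2*, *Lpar1* and *Pdgfra*.

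A score of the cortical markers was also entered as a covariate, a fit added after seeing the data. It called 21 members higher after acute L-DOPA (background 6.72%) and 13 lower after chronic L-DOPA (background 4.22%). Between treatments it called 27 lower in the lesioned striatum (background 12.5%) and 7 in the unlesioned striatum (background 2.49%), and in the interaction none (background 1.86%).

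A wider list of 39 other genes of mature oligodendrocytes was also examined on the lesioned side, where 26 were lower after chronic L-DOPA and none was higher, with a median of -0.63, against 13.1% of all genes lower. *Cryab*, for a small heat shock protein, was lower by 1.54 (standard error 0.30, adjusted p = 0.00525), the largest fall named from this list. On the unlesioned side 5 of the 39 were lower (2.00% of all genes), among them *Cryab*, by 1.12 (standard error 0.25, adjusted p = 0.0446), and *Ninj2*, by 0.88 (standard error 0.17, adjusted p = 0.0302). After acute L-DOPA 7 were higher in the lesioned striatum (8.16% of all genes), led by *Ppp1r14a* (0.45, adjusted p = 0.0289) and the tetraspanin *Cd9* (0.43, adjusted p = 0.00691). After chronic L-DOPA none was called between the sides. In the interaction *Tppp3*, a tubulin polymerization protein, was the only gene of the 39 called (-0.75, adjusted p = 0.0317), where 1.56% of all genes were lower. These counts are from the fits without the block. With the pairs as a block, 18 of the 39 were higher after acute L-DOPA (13.2% of all genes), 12 were lower and 1 was higher after chronic L-DOPA (11.4% and 12.8% of all genes), and 20 were lower in the interaction (6.13% of all genes).

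Among 26 genes of precursors and newly formed oligodendrocytes, 8 were lower and 2 higher on the lesioned side after chronic L-DOPA, with a median of -0.24, and none was called on the unlesioned side. The share of all genes there was 13.1% lower and 12.5% higher, so the higher calls are no more frequent in the list than among all genes. *Sox8*, a SOX factor related to *Sox10*, ran against the members. It measured 19.0, 21.6 and 18.1 CPM in acute lesioned and 28.5, 29.6 and 31.7 CPM in chronic lesioned libraries, higher by 0.61 (standard error 0.09, adjusted p = 0.000707). It was also higher than on the unlesioned side after chronic L-DOPA, by 0.81 (standard error 0.08, adjusted p = 7.72e-05), and its interaction was 0.73 (adjusted p = 0.000859). *Lhfpl3* was higher by 0.48 on the lesioned side (adjusted p = 0.00559). The falls named by the rule were *Nkx2-9*, by 2.09, and the Notch ligand *Dll3*, by 1.43, both at most 0.347 CPM in every library and as low as 0.0114 CPM for *Nkx2-9* and 0.0911 CPM for *Dll3* in chronic lesioned replicate 1. *Dll3* was higher on the lesioned side after acute L-DOPA (0.73, adjusted p = 0.0434), lower after chronic L-DOPA (-1.11, adjusted p = 0.0468) and had an interaction of -1.83. With the pairs as a block, 7 of the 26 were higher and 1 was lower after acute L-DOPA (13.2% and 11.8% of all genes). After chronic L-DOPA 3 were higher and 2 lower (12.8% and 11.4% of all genes), and in the interaction 2 were higher and 2 lower (7.30% and 6.13% of all genes). *Cacng4* was lower on the lesioned side after acute L-DOPA, by 0.34 (adjusted p = 0.00893).

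The transcripts of a member mostly moved with its top transcript. Reads were counted on every transcript they overlapped, so transcripts of a gene are not all separate measurements. How far shared reads account for this was not tested. Of 246 member transcripts tested in the lesioned striatum, 202 were lower after chronic L-DOPA and 2 were higher, where 11.2% of all transcripts were lower and 12.1% higher. Both of the latter belong to *Mbp*, whose other 17 transcripts were all lower, and they were singled out after their values were seen. They start at the upstream promoter of the gene, from which the golli products are made that are known from neurons and immune cells as well as from oligodendrocytes. An upstream start was not particular to them, since 4 other *Mbp* transcripts that also start there were among the 17 lower ones. Those 4 run on past the start of the top transcript, and the 2 higher ones do not. AK172324 runs from 82644540 to 82683657 on chromosome 18 of mm9, ends before the start of the top transcript at 82723855, and so shares no exon bases with it. Its level was 0.803, 0.828 and 0.989 CPM in acute unlesioned, 0.493, 0.625 and 0.615 in acute lesioned, 1.00, 0.952 and 0.954 in chronic unlesioned and 1.33, 0.906 and 1.29 in chronic lesioned libraries, from 54 to 142 counts. All acute lesioned libraries lay below all others. It was lower on the lesioned side after acute L-DOPA, by 0.60 (standard error 0.15, adjusted p = 0.0233), the opposite side of 0 from the top *Mbp* transcript. In the lesioned striatum it was higher by 1.03 after chronic L-DOPA (standard error 0.19, adjusted p = 0.00339), and its interaction was 0.88 (standard error 0.23, adjusted p = 0.0385). The second transcript of this kind counts nearly the same reads and is no separate measurement.

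Markers of other cells were measured beside the members. Microglial markers summed to 98.8 to 117 CPM in acute lesioned, 88.2 to 93.1 in acute unlesioned, 62.1 to 79.9 in chronic lesioned and 59.5 to 77.1 in chronic unlesioned libraries. On the lesioned side 8 of the 10 were lower after chronic L-DOPA and none was higher, where 13.1% of all genes were lower and 12.5% higher. On the unlesioned side 4 were lower (*Tmem119*, *C1qa*, *C1qb* and *C1qc*) and none was higher, against 2.00% and 1.07% of all genes. Unlike the members, they were not highest in replicate 2 of the chronic groups. Astrocyte markers summed to 601 to 764 CPM in acute lesioned and 640 to 672 in chronic lesioned libraries, with 3 of 10 lower and 1 higher. Medium spiny neuron markers ran from 2316 to 2507 and from 2123 to 2869 CPM in these groups, with 2 of 10 lower and 2 higher. Endothelial and mural markers summed to 61.1 to 73.5 and 52.5 to 63.1 CPM, with 2 of 10 lower and 1 higher. Blood genes summed to 5.31 to 10.5 and 1.87 to 3.65 CPM, and 4 of 5 were lower. On the unlesioned side 2 astrocyte, 1 medium spiny neuron and 1 endothelial or mural marker were lower after chronic L-DOPA. There 1 endothelial or mural marker was higher, and no blood gene was called. The part of these markers in the results was not tested.

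**Figure D5:**
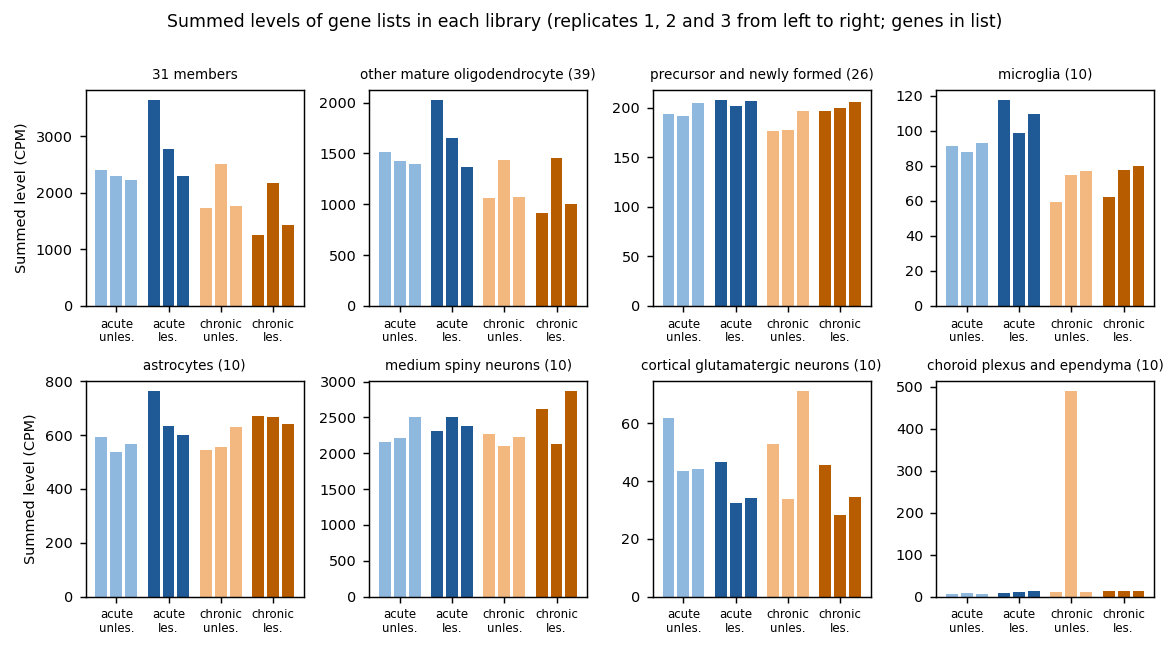
Summed level in CPM (y axes, from 0) of the 31 members and of lists of marker genes in each library (bars, replicates 1, 2 and 3 from left to right in each group; genes in a list in brackets). Within both chronic groups the members and the other mature oligodendrocyte genes are highest in replicate 2, precursor genes stay between 176.5 and 207, and the choroid plexus sum reaches 490.3 in chronic unlesioned replicate 2.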

How the data were processed

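Striatal RNA of 12 libraries, prepared from 0.5 µg of RNA each, was sequenced by the authors, who deposited read counts per transcript and a length-scaled signal (coverage) per transcript on mouse build mm9. Reads were counted on every transcript they overlapped, and the mapping was done on the Genomatix Mining Station, and its settings and strand use are not given in the sources used here. Only the deposited counts entered the tests. The signal column was checked against count per length. Another 36 per-sample columns, 8 columns of the authors' means and SDs and 3 tables of the authors' own DESeq comparisons (fold changes and p-values) were not used.

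Of 189660 transcripts, 296 without a gene symbol (0.0485% of counts) were left out. edgeR 4.0.16 (R 4.3.3) was run on all other transcripts that passed filterByExpr, with TMM scaling, glmQLFit and glmQLFTest, on the 6 libraries of each comparison of 2 groups and on all 12 for the interaction. p-values were adjusted by Benjamini and Hochberg over all transcripts tested, and a call is an adjusted p under 0.05. Backgrounds count the top transcript of each gene. The standard error is the log2 fold change divided by the square root of F.

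The members and all lists were chosen with earlier results of these data known. Values in every library are given for the 12 members with the smallest adjusted p among those called, and for *Mbp*, *Mog*, *Olig2* and *Pdgfra*. From the wider lists the 3 genes with the largest change in each direction of each comparison are named, except where a gene is not reported here. Values of *Enpp2* and of the upstream *Mbp* transcript were added after the data were seen.

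Same-numbered libraries were taken as pairs within a treatment because their deviations from the group means correlated over 14746 genes (0.444, 0.37 and 0.334 for acute, 0.492, 0.548 and 0.142 for chronic). The replicate number was then entered as a block. Libraries of the 2 sides with different numbers gave -0.31 to -0.057 for acute and -0.502 to 0.159 for chronic. The 0.142 of chronic pair 3 lies within that chronic range, so this pair is not set apart. Between treatments, where no mouse can be shared, a correlation of 0.309 occurred. On simulated counts for the acute comparison (129674 transcripts), 94 of 100 changes by a factor of 4 and 87 of 100 by a factor of 2 were recovered with 7 false calls. For the chronic comparison (127063 transcripts) 99 and 86 of 100 were recovered with 15 false calls. For the interaction (130867 transcripts) 92 and 61 of 100 were recovered with 4 false calls. Recovery of smaller changes was not tested. The median log2 value of the members was 0.30 in the acute comparison and -0.49 in the interaction. With 3 libraries against 3 an exact permutation test cannot go below p = 0.10, so no test on single values was run. Reads carry no molecular identifiers, so counting precision is an upper limit. Alternatives were DESeq2 1.42.0, its size factors, no filter, single or summed transcripts, a common fit, a stricter threshold, the block, each library left out and, added after seeing the data, a cortical covariate and pairs of libraries left out. Promoter sequences were taken from RefSeq on GRCm38.p6.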

Additional observations from a re-analysis of the deposited data

Results flagged for a closer look

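The difference between the sides changed between acute and chronic L-DOPA in 23 members by the interaction test with the pairs as a block (edgeR's quasi-likelihood test, adjusted p under 0.05), and in none without the block. The share of all genes called lower was 6.13% with the block and 1.56% without it. Its log2 value among genes of sheath structure was -0.67 for *Mbp*, -0.66 for *Mobp*, -0.52 for *Cnp*, -0.54 for *Mog*, -0.38 for *Mag*, -0.70 for *Mal*, -0.38 for *Pllp*, -0.59 for *Cldn11* and -0.45 for *Tspan2*. Among enzymes and carriers it was -1.19 for *Enpp2*, -0.42 for *Qdpr*, -0.37 for *Car2* and -0.51 for *Trf*. Among cytoskeletal, membrane-associated and coupling genes it was -0.42 for *Gsn*, -0.63 for *Plekhb1*, -0.59 for *Evi2a*, -0.51 for *Bcas1* and -0.61 for *Gjc3*. Among transcription factors it was -0.53 for *Sox10*, -0.42 for *Olig1* and -0.47 for *Nkx6-2*, and among receptors -0.56 for *Gpr37* and -0.58 for *Gpr17*. The value for *Enpp2* includes chronic unlesioned replicate 2, the library with choroid plexus RNA.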

How the results depend on the processing

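Counts of members called moved with several choices, and the cause was not tested. The share of all genes called in the same direction by the same fit moved too and stands in brackets. The 5 higher after acute L-DOPA (8.16%) became 1 at an adjusted p of 0.01 (3.87%), 11 with DESeq2 (7.15%), 11 without the filter (5.15%), 3 with a single transcript per gene (7.81%), 1 with summed transcripts (6.45%), 0 in a fit over all 12 libraries (5.43%), 21 with the replicate block (13.2%), 21 with the cortical covariate (6.72%) and 1 to 24 (5.11% to 7.57%) when 1 library was left out. The 0 lower after chronic L-DOPA (5.20%) became 13 with the block (11.4%), 13 with the covariate (4.22%), 10 without both chronic replicates 2 (5.76%) and 0 to 9 (2.61% to 5.05%) with 1 library left out. The 28 lower in the lesioned striatum (13.1%) became 9 at 0.01 (5.13%), 15 with DESeq2 (11.3%), 18 with summed transcripts (9.39%), 5 without both lesioned replicates 1 (3.11%) and 11 to 30 (6.45% to 16.5%) with 1 library left out. The 3 lower in the unlesioned striatum (2.00%) became 0 at 0.01 (0.0789%), 10 without the filter (1.84%), 0 with summed transcripts (0.312%), 1 in the common fit (2.18%), 5 with the block (1.77%), 7 with the covariate (2.49%) and 0 to 25 (0.0484% to 6.63%) with 1 library left out. The 0 of the interaction (1.56%) became 1 with DESeq2 (2.09%), 23 with the block (6.13%), 6 without both chronic replicates 2 (2.53%) and 0 to 12 (0.889% to 2.99%) with 1 library left out. Between treatments the numbers share only a number (correlations of -0.081, -0.168 and 0.2 lesioned, and -0.059, -0.017 and 0.128 unlesioned), and the block called 28 and 5.

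Signs of small differences turned. Leaving out 1 library gave, after acute L-DOPA, -0.0067 to 0.36 for *Bcas1* and -0.058 to 0.11 for *Pdgfra* (-0.0042 with summed transcripts). After chronic L-DOPA it gave -0.18 to 0.16 for *Olig1*, -0.10 to 0.28 for *Olig2* (-0.16 with the covariate), -0.43 to 0.13 for *Qdpr*, -0.19 to 0.0081 for *Nkx6-2*, -0.39 to 0.19 for *Mag*, -0.47 to 0.094 for *Fa2h* and -2.03 to 0.017 for *Enpp2*. Between treatments it gave -0.16 to 0.0011 for *Pdgfra* on the lesioned side (0.011 without both replicates 1) and -0.79 to 1.27 for *Enpp2* on the unlesioned side. None of these was called in the fits they vary. Of the other alternatives for single genes, 1118 kept direction and call, 99 gained and 80 lost the call. Depth limits *Nkx2-9* and *Dll3*, at 0.0114 to 0.347 CPM, and the upstream *Mbp* transcript, at 54 to 142 counts. The adjusted p of that transcript in the lesioned striatum ran from 0.000238 to 0.0681 over the alternatives.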
